A study of Mus musculus with 4 samples.

Results

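The 10 glutathione S-transferase genes described here were the rows of the deposited table with the symbols Gsta3, Gsta4, Gstm1, Gstm2, Gstm5, Gstp1, Gstt2, Gsto1, Gstz1 and Mgst1, out of 52189 genes listed. The study used RNA immunoprecipitation followed by sequencing (RIP-seq) in AML12, a mouse hepatocyte cell line, and asked which nuclear RNAs are associated with SAFB, a nuclear matrix protein that binds RNA. The groups were the SAFB RIP, made with an antibody against SAFB (2 libraries), and the IgG RIP, made with control IgG (2 libraries). All 4 libraries came from this 1 line, grown with serum, an ITS supplement and dexamethasone, crosslinked with ultraviolet light and lysed as isolated nuclei, and libraries were strand-specific and depleted of ribosomal RNA. Each nuclear lysate was shared between the antibodies, but the labels do not say which libraries share one or that replicates came from separate cultures, so p-values measure only the spread between these libraries. Values are TPM, the length-corrected share of each gene in its library scaled to a total of 1000000.

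Glutathione S-transferases join the tripeptide glutathione to electrophilic compounds, which makes them more soluble and ready for export from the cell. The soluble enzymes are dimers sorted by sequence into classes, here alpha (Gsta3, Gsta4), mu (Gstm1, Gstm2, Gstm5), pi (Gstp1), theta (Gstt2), omega (Gsto1) and zeta (Gstz1). Mgst1 is a membrane enzyme of a separate family, found in the endoplasmic reticulum and the outer mitochondrial membrane. Hepatocytes are among the cells richest in these enzymes, which take part in the handling of drugs, toxins and products of lipid peroxidation.

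Gstp1 was the member furthest from equality between the groups, at 149 and 141 TPM in the SAFB RIP against 422 and 375 TPM in the IgG RIP. Gsta3, by far the most abundant member, and Gstz1 were higher in the SAFB RIP as deposited. Of the 10 members, all of which passed the filter on low values, 2 rose (Gsta3 and Gstz1), 1 fell (Gstp1) and 7 did not pass (limma with Benjamini-Hochberg adjustment over all genes, threshold 0.05). Among the 16647 genes tested, 29.8% were called higher and 8.3% lower, together 38.1%, so the number of members called is near that of genes in general. For the 3604 protein-coding genes tested whose transcripts lie within the members' range of length, 20.5% were called higher and 14.4% lower. The median log2 fold change was -0.08 for the members and 0.46 for all genes tested.

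The libraries differed in ways that touch every value below. The SAFB RIP libraries held 22389 and 21006 genes above 0 and correlated across the genes tested at r = 0.978 in log2(TPM + 1), and the IgG RIP libraries held 16031 and 17278 and correlated at r = 0.923. The IgG RIP libraries lay further apart, with a median absolute log2 difference 2.23 times that of the SAFB RIP pair, whereas the test assumes equal spread. Safb, the gene of the precipitated protein, stood at 988 and 880 TPM in the SAFB RIP and at 170 and 161 TPM in the IgG RIP. Of 14 hepatocyte markers 13 were tested, with summed levels of 6776 to 7031 TPM in the SAFB RIP and 7561 to 7730 TPM in the IgG RIP, and Apoa2 was listed at 0 in all 4. These markers went both ways, with 3 called higher (Alb, Apob and Afp) and 2 lower, against 29.8% and 8.3% of all genes tested. Afp stood at 1.31 and 1.69 TPM in the SAFB RIP and at 0 in the IgG RIP. Because Afp passed the filter on low values through the SAFB RIP alone, it could only have been called higher. Of 6 cholangiocyte (bile duct cell) markers 5 were tested, led by Spp1, Krt7 and Krt19, at 3070 to 3095 TPM in the SAFB RIP and 2618 to 2703 TPM in the IgG RIP. Although the sum was higher in the SAFB RIP, 2 of these were called lower (Krt19 and Sox9) and 1 higher (Cftr). Cftr was low, at 2.88 and 3.56 TPM in the SAFB RIP and 0.698 and 0.170 TPM in the IgG RIP. It passed the filter on low values through the SAFB RIP alone, so it could only have been called higher. The 7 fibroblast and stellate cell markers summed to at most 1.83 TPM and the 4 endothelial markers to at most 0.771 TPM in any library. The 5 leukocyte and Kupffer cell markers summed to 21.3 to 31.8 TPM in the SAFB RIP and 6.31 to 12.7 TPM in the IgG RIP, led by Cd68, with Adgre1, Clec4f and Lyz2 listed at 0. All 4 libraries came from the AML12 line, and why it showed RNAs listed as markers of other cell types was not tested. Because the median gene lay 0.46 above equality on the log2 scale, fold changes are also given after each library was centred on its median, a scaling that left 16.4% of genes higher and 17.6% lower.

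The order of the members by level was much alike in both groups, apart from Gstp1. In the SAFB RIP, Gsta3 came first at 1531 ± 78.5 TPM (SD, n = 2), followed by Gstm1 (191 ± 5.01), Mgst1 (174 ± 3.47), Gstp1 (145 ± 5.62), Gstm2 (139 ± 11.97), Gsto1 (118 ± 9.45), Gsta4 (97.7 ± 13.5), Gstz1 (92.9 ± 8.59), Gstt2 (30.0 ± 1.24) and Gstm5 (20.3 ± 0.935). In the IgG RIP, Gsta3 came first at 1101 ± 95.9 TPM, followed by Gstp1 (398 ± 33.3), Gstm1 (223 ± 57.6), Mgst1 (216 ± 65.4), Gstm2 (188 ± 23.9), Gsto1 (122 ± 12.5), Gsta4 (75.1 ± 12.3), Gstz1 (55.4 ± 8.39), Gstt2 (34.1 ± 14.7) and Gstm5 (22.03 ± 10.99). Gstp1 thus held rank 4 in both SAFB RIP libraries and rank 2 in both IgG RIP libraries. Neighbours whose libraries overlapped were Gstp1 with Gstm2 and Gsta4 with Gstz1 in the SAFB RIP. In the IgG RIP these were Gstm1 with Mgst1, Mgst1 with Gstm2, and Gstt2 with Gstm5. The 10 members together took 0.261% and 0.247% of the TPM of the SAFB RIP libraries and 0.254% and 0.234% of the IgG RIP libraries. Gsta3 made up 60.9% and 59.7% of that sum in the SAFB RIP, against 46.1% and 44.3% in the IgG RIP.

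**Figure D1:**
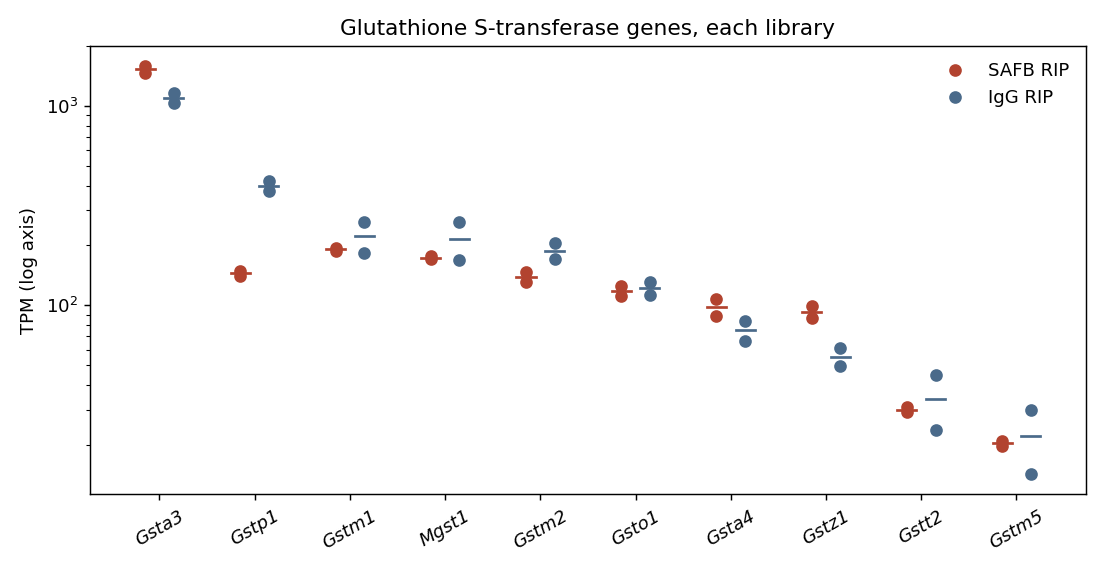
TPM of each glutathione S-transferase gene on a log axis, with 1 point per library, SAFB RIP left and IgG RIP right of each position, and a short line at the group mean. Gsta3 lies above all others in every library, and the Gstp1 points of the SAFB RIP (149 and 141 TPM) lie well below those of the IgG RIP (422 and 375 TPM).

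In 3 members both SAFB RIP libraries lay above both IgG RIP libraries (Gsta3, Gsta4, Gstz1), in 2 they lay below (Gstm2, Gstp1), and in 5 the groups overlapped. Over all genes tested, the groups did not overlap in 73.7%, with the SAFB RIP above in 52.3% and below in 21.4%. After median centring 0 members were higher and 3 were lower (Gstm2, Gstp1 and Mgst1), against 16.4% and 17.6% of all genes tested. Gsta3 and Gstz1 no longer passed on that scale. Gstp1 is therefore the only member called in the same direction on both scales.

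The alpha class enzymes act on products of lipid peroxidation and, in mouse, Gsta3 on the epoxide of aflatoxin. Gsta3 (ENSMUSG00000025934; mm10, chromosome 1, 21240589 to 21265661, plus strand, 7 exons) had 1587 and 1476 TPM in the SAFB RIP, against 1169 and 1034 TPM in the IgG RIP. Both SAFB RIP libraries were higher, by 1.39 times on the ratio of means. The log2 fold change was 0.48 ± 0.12 (SE; limma, Benjamini-Hochberg adjusted p = 0.0414), close to the median of 0.46 over all genes, and after median centring it stood at 0.02 and did not pass. It also did not pass once a trend with GC content was removed (0.06), and without SAFB RIP replicate 1 (0.42, adjusted p = 0.364) or SAFB RIP replicate 2 (0.53, adjusted p = 0.304).

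Gsta4, an enzyme with high activity toward 4-hydroxynonenal, a toxic aldehyde of lipid peroxidation, lies on another chromosome (ENSMUSG00000032348; chromosome 9, 78182774 to 78209349, plus strand, 7 exons). It had 107 and 88.2 TPM in the SAFB RIP, against 66.4 and 83.8 TPM in the IgG RIP. The groups did not overlap, but the nearest libraries of the groups were closer to each other than the IgG RIP libraries were among themselves. The log2 fold change of 0.38 ± 0.18 did not pass (95% interval -0.09 to 0.85; limma, Benjamini-Hochberg adjusted p = 0.161), and it stood at -0.08 after median centring.

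SAFB has been reported to bind purine-rich RNA, so the annotated transcript of each member (GENCODE release M21, sense strand only) was searched for the hexamer GAAGAA, matches that overlap each other included. The hexamer occurred 13 times in 6 members, in each case in the coding sequence, while Gstm1, Gstp1, Gstz1 and Mgst1 had no match in these transcripts. It occurred in 82.5% of the transcripts of the 11961 protein-coding genes tested, and in 69.2% of the 3604 of them whose transcripts lie within the members' range of length. The median density was 0.692 per kilobase for the members and 0.732 for all 11961 protein-coding genes tested. The 3 sites of Gsta3 and the overlapping pair of Gstm5, the member with the highest density at 3.17 per kilobase, are shown with their flanks as examples, with the hexamer in capitals.
Gsta3 site 1: ttgatggcagggGAAGAAtggagcctatcc
Gsta3 site 2: ggtgtggagtttGAAGAAaaatttctgaaa
Gsta3 site 3: cctccccacagtGAAGAAgtttcttcaacc
Gstm5 site 2: tgtggtgacactGAAGAAgaaaagatacga
Gstm5 site 3: ggtgacactgaaGAAGAAaagatacgagta
A match describes the letters only and says nothing of binding. The log2 fold changes of the 6 members with a match ran from -0.43 (Gstm2) to 0.48 (Gsta3), and those of the 4 without from -1.45 (Gstp1) to 0.74 (Gstz1).

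The mu class genes lie in a cluster on chromosome 3 and resemble each other in sequence. Over the 45 pairs of members, identity of the coding sequences ranged from 39.6% to 85.9% with a median of 48.3%, and the highest value was that of Gstm1 and Gstm2. Gstm2 and Gstm5 shared 71.1% and Gstm1 and Gstm5 69.6%. The start of the coding sequence of Gstm1 and the stretches of Gstm2 and Gstm5 that align with it are shown as an example, with capitals where a base differs from Gstm1. This stretch alone does not tell how well reads of the genes can be told apart.
Gstm1: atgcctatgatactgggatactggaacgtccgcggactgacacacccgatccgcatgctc
Gstm2: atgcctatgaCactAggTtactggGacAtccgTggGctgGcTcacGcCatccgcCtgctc
Gstm5: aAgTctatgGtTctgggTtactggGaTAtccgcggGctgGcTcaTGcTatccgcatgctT
In these 60 bases Gstm2 differed from Gstm1 at 12 positions and Gstm5 at 15. Of all stretches of 50 bases in the annotated transcript, 23.1% of those of Gstm1, 9.36% of those of Gstm2 and 0% of those of Gstm5 also occurred in a transcript of another gene, so the values of Gstm1 and Gstm2 carry some uncertainty. For Gstm1 the gene that shared most was the pseudogene Gstm2-ps1, which stood at no more than 2.11 TPM in any library.

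Gstm1, a major mu class enzyme of mouse liver (ENSMUSG00000058135; chromosome 3, 108012255 to 108017973, minus strand, 8 exons), had 195 and 188 TPM in the SAFB RIP, against 264 and 182 TPM in the IgG RIP. The groups overlapped, and the log2 fold change of -0.20 ± 0.20 did not pass (95% interval -0.72 to 0.33; limma, Benjamini-Hochberg adjusted p = 0.475). Gstm2 (ENSMUSG00000040562; chromosome 3, 107981702 to 107986453, minus strand, 8 exons) had 147 and 130 TPM in the SAFB RIP, against 205 and 171 TPM in the IgG RIP. Both SAFB RIP libraries were lower than both IgG RIP libraries. The log2 fold change of -0.43 ± 0.14 did not pass as deposited (adjusted p = 0.0684) and passed after median centring, at -0.89 ± 0.16 (limma, Benjamini-Hochberg adjusted p = 0.0162). Within a library, the ratio of Gstm1 to Gstm2, which does not depend on scaling between libraries, was 1.32 and 1.44 in the SAFB RIP and 1.29 and 1.06 in the IgG RIP.

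Gstm5, which in mouse is known from brain and testis (ENSMUSG00000004032; chromosome 3, 107895821 to 107898686, plus strand, 8 exons), was the least abundant member. It had 20.96 and 19.6 TPM in the SAFB RIP, against 14.3 and 29.8 TPM in the IgG RIP. The SAFB RIP libraries lay between the IgG RIP libraries, and the log2 fold change was -0.03 ± 0.39 (95% interval -1.07 to 1.01). Exons of Gstm5 overlap those of 4933431E20Rik, an antisense gene on the opposite strand at 30.7 and 69.8 TPM in the SAFB RIP and 10.4 and 25.8 TPM in the IgG RIP. The libraries kept strand, but whether counting used it is not given here, so reads of the pair may not have been told apart.

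Gstp1, the pi class enzyme, is known for conjugation of electrophiles and for binding the stress kinase JNK. It is encoded by a short gene (ENSMUSG00000060803; chromosome 19, 4035407 to 4037985, minus strand, 7 exons) beside the related Gstp2 and Gstp3. Its mean was 145 ± 5.62 TPM in the SAFB RIP and 398 ± 33.3 TPM in the IgG RIP (SD, n = 2 each), so it was 2.75 times higher in the IgG RIP. The log2 fold change was -1.45 ± 0.11 (95% interval -1.74 to -1.17; limma, Benjamini-Hochberg adjusted p = 0.00468), and 1.68% of the genes tested had a lower one. After median centring it stood at -1.91 (adjusted p = 0.00452). Removing the GC trend moved it most, to -0.93 (adjusted p = 0.00698), and Gstp1 has the highest GC content of the members, 55.8%. Without SAFB RIP replicate 1 or 2 it stood at -1.49 and -1.41 and no longer passed (adjusted p = 0.114 and 0.111). In each of those reduced comparisons 7 genes in all were called lower.

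Gstp1 has near-identical copies, which were not called as deposited. Its coding sequence is 98.1% identical to that of Gstp2 (chromosome 19, 4040285 to 4046023, minus strand), and a processed pseudogene, Gstp-ps, is 97.6% identical to it over the aligned part and 99.2% to Gstp2. A stretch of 60 coding bases where Gstp1 and Gstp2 differ most is shown, with capitals where a base differs from Gstp1.
Gstp1: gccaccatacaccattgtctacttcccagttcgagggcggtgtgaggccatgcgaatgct
Gstp2: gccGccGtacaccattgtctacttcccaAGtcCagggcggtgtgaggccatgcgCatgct
Gstp-ps: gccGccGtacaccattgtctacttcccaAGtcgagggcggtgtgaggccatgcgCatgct
Here Gstp2 differed from Gstp1 at 6 positions and Gstp-ps at 5, while Gstp2 and Gstp-ps differed at 1. Of the stretches of 50 bases in the Gstp1 transcript, 62.3% also occurred in Gstp2, so the split of reads among the copies is uncertain.

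Gstp-ps lies in an intron of Traf5 on the same strand (chromosome 1, 192073820 to 192074450) and had 93.2 and 98.7 TPM in the SAFB RIP, against 102 and 93.0 TPM in the IgG RIP. Its log2 fold change of -0.02 ± 0.11 did not pass (95% interval -0.32 to 0.28), while after median centring it stood at -0.48 and was called lower, and with the GC trend removed it stood at 0.42 and was called higher (adjusted p = 0.0448 and 0.0409), so its direction depends on the scaling. Traf5 itself stood at 43.6 and 42.7 TPM in the SAFB RIP and at 44.4 and 45.5 TPM in the IgG RIP. Gstp2 had 0.516 and 2.88 TPM in the SAFB RIP and 1.70 and 3.09 TPM in the IgG RIP. The ratio of Gstp1 to Gstp-ps within a library was 1.60 and 1.43 in the SAFB RIP, against 4.14 and 4.03 in the IgG RIP. With the 3 copies summed into 1 row, a choice made once their values were known, the sum was 243 and 243 TPM in the SAFB RIP and 526 and 471 TPM in the IgG RIP. The summed row still fell, by 1.03 ± 0.10 on the log2 scale (limma, Benjamini-Hochberg adjusted p = 0.00619).

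**Figure D2:**
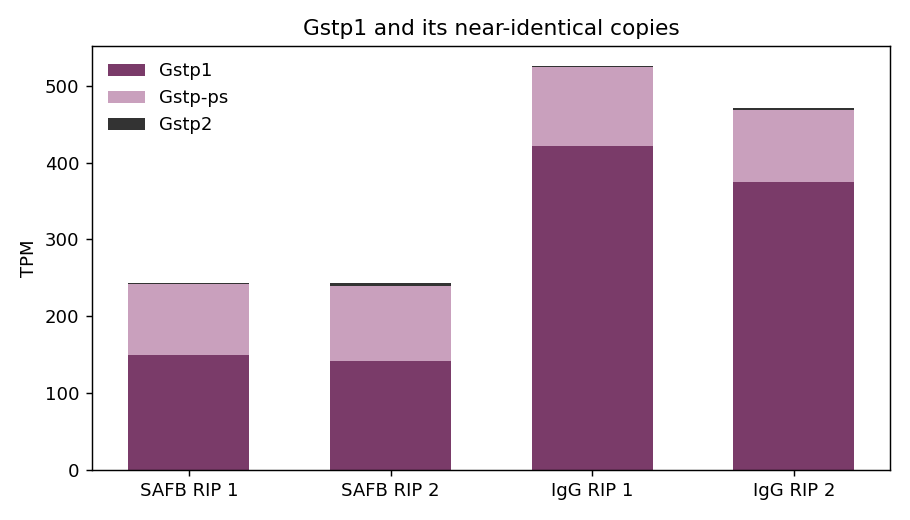
TPM of Gstp1, the processed pseudogene Gstp-ps and Gstp2, stacked, in each SAFB RIP and IgG RIP library. The Gstp-ps segment is of similar height in the 4 libraries, 93.0 to 102 TPM, while the Gstp1 segment is shorter in the SAFB RIP.

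Of the remaining classes, the zeta enzyme Gstz1 also serves as maleylacetoacetate isomerase in the breakdown of tyrosine. Gstz1 (ENSMUSG00000021033; chromosome 12, 87147165 to 87164723, plus strand, 9 exons) had 86.9 and 99.0 TPM in the SAFB RIP, against 49.4 and 61.3 TPM in the IgG RIP. Both SAFB RIP libraries were higher, by 1.68 times on the ratio of means. The log2 fold change of 0.74 ± 0.16 was the largest positive one among the members (limma, Benjamini-Hochberg adjusted p = 0.0276). It did not pass after median centring, at 0.28 (adjusted p = 0.197), with the GC trend removed, at 0.61 (adjusted p = 0.0573), or without SAFB RIP replicate 1 (0.84, adjusted p = 0.221) or replicate 2 (0.65, adjusted p = 0.252). Its exons overlap those of Pomt2 on the opposite strand, which stood at 17.7 and 18.1 TPM in the SAFB RIP and 19.2 and 20.7 TPM in the IgG RIP.

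The theta, omega and microsomal members did not pass as deposited. Gstt2, a theta class enzyme (ENSMUSG00000033318; chromosome 10, 75831114 to 75837424, minus strand, 6 exons), had 30.9 and 29.1 TPM in the SAFB RIP, against 44.5 and 23.6 TPM in the IgG RIP. Its IgG RIP libraries differed 1.88 times and enclosed the SAFB RIP libraries, and the log2 fold change was -0.11 ± 0.33 (95% interval -0.999 to 0.78). Gsto1, an omega class enzyme that reduces disulfides and dehydroascorbate (ENSMUSG00000025068; chromosome 19, 47854970 to 47864790, plus strand, 6 exons), had 112 and 125 TPM in the SAFB RIP, against 130 and 113 TPM in the IgG RIP. Its log2 fold change of -0.04 ± 0.13 had a narrower interval, -0.38 to 0.30. Gsto1 lies in an intron of Cfap43, which is on the opposite strand. Mgst1 (ENSMUSG00000008540; chromosome 6, 138140316 to 138156755, plus strand, 4 exons) had 171 and 176 TPM in the SAFB RIP, against 170 and 262 TPM in the IgG RIP. The groups overlapped, and the log2 fold change was -0.28 ± 0.23 (95% interval -0.88 to 0.33). After median centring Mgst1 passed as lower, at -0.74 (limma, Benjamini-Hochberg adjusted p = 0.0461), although its IgG RIP libraries differed 1.55 times from each other as deposited.

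**Figure D3:**
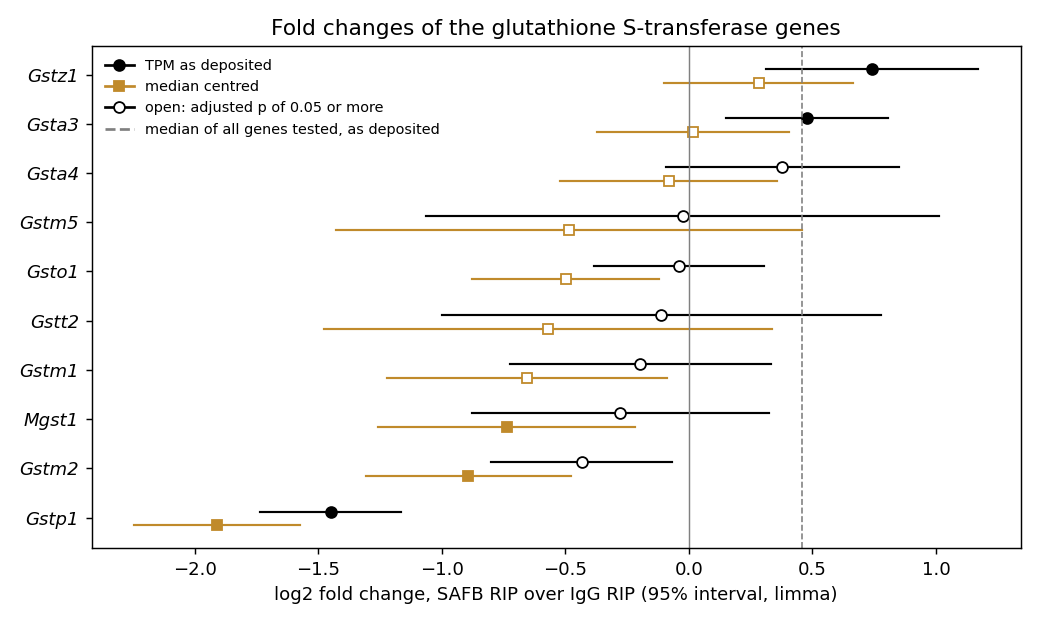
Log2 fold change of each member, SAFB RIP over IgG RIP, with 95% intervals from limma, as deposited (black circles) and after median centring (ochre squares). Filled symbols have an adjusted p under 0.05, and the dashed line is the median of all genes tested, 0.46. Gstp1 is the only member filled on both scales.

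The members did not move as a block. Within a library, the ratio of Gsta3 to Gstp1 was 10.7 and 10.5 in the SAFB RIP, against 2.77 and 2.76 in the IgG RIP. The pair joins the most abundant member, called higher as deposited, with the only member called lower. A difference in their ratio therefore follows from those calls. The ratio of Gstm1 to Gstm2 differed less, at 1.32 and 1.44 in the SAFB RIP and 1.29 and 1.06 in the IgG RIP. The ratio of Gsta3 to Gstp1 does not depend on the factor by which a library is scaled, but a GC trend can alter it. Gsta3 has the lowest GC content of the members, 42.6%, and Gstp1 the highest, 55.8%. With that trend removed, their log2 fold changes stood at 0.06 and -0.93. The Gstp1 value also carries the uncertain split of reads among its copies. In the 5 members whose groups overlapped, the IgG RIP libraries differed from each other by 1.16 to 2.09 times.

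The members have short transcripts. Their annotated transcripts run from 821 bases (Gstp1) to 2254 bases (Gstt2) with a median of 1174.5, and all 10 are shorter than the median of 2953 bases of the protein-coding genes tested. The median gene span was 8066 bases, against 23285 bases for those genes, while the GC content was alike, with medians of 50.3% and 50.4%. Protein-coding genes tested had a median log2 fold change of 0.34, and the 3604 of them with transcripts within the members' range of length had one of 0.12. With a length trend removed in each library, Gsta3 stood at 0.62 and Gstz1 at 0.91, both called higher, and Gstp1 at -1.65, called lower (limma, Benjamini-Hochberg adjusted p = 0.0237, 0.0245 and 0.00688). Removing that trend kept the level of each library, so the shift over all genes remained. After median centring instead, Gsta3 stood at 0.02 and Gstz1 at 0.28, and neither passed.

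**Figure D4:**
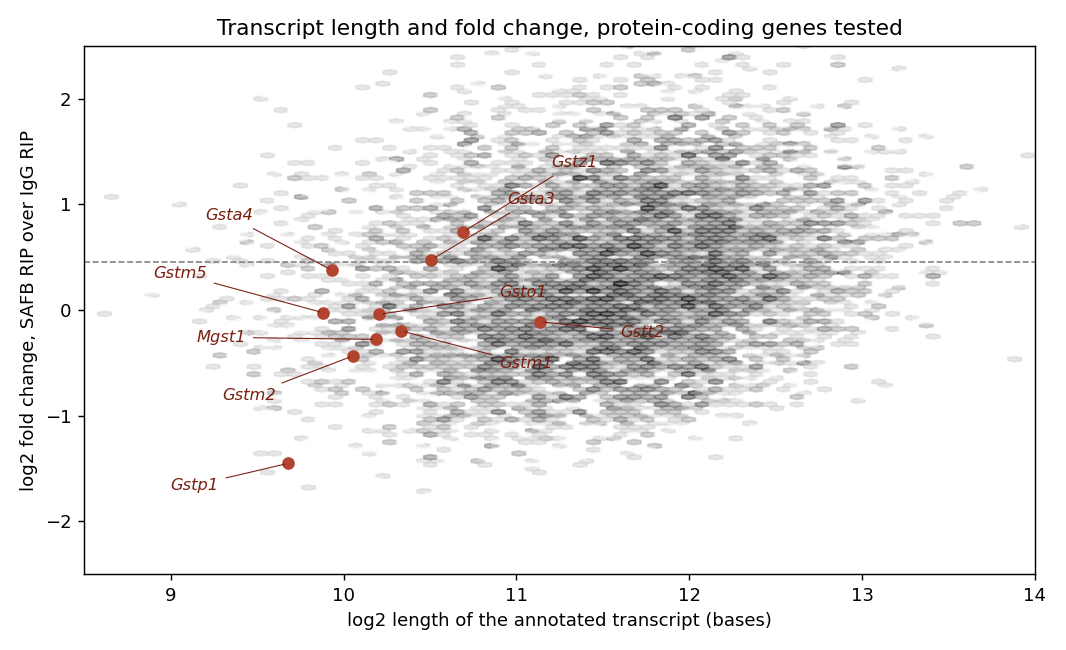
Log2 fold change against log2 transcript length, with the protein-coding genes tested as grey cells (darker for more genes) and the members as red points. The axes leave out genes beyond the ranges drawn, and the dashed line is the median of all genes tested. All members lie below the median transcript length of 2953 bases, and Gstp1 lies at the lower edge of the cloud.

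The other genes of the glutathione transferase families included 2 that were lower in the SAFB RIP and 0 that were higher. Of 20 listed, 13 were tested, with a median log2 fold change of -0.46. For comparison, 8.3% of all genes tested were called lower and 29.8% higher. Mgst3, a microsomal enzyme with peroxidase activity, had 12.6 and 12.1 TPM in the SAFB RIP, against 56.2 and 64.9 TPM in the IgG RIP. It fell by 2.20 ± 0.18 on the log2 scale (limma, Benjamini-Hochberg adjusted p = 0.00518), a larger fitted change than that of any member. Gstt1, of the theta class, had 127 and 117 TPM in the SAFB RIP, against 170 and 156 TPM in the IgG RIP, and passed as lower at -0.41 ± 0.11 (adjusted p = 0.0421). Gstt1 did not pass with the GC trend removed, at -0.09 (adjusted p = 0.557), nor with the length trend removed, with no filter on low values or without the variance trend (adjusted p = 0.0514, 0.0597 and 0.136). Mgst2 (-0.01), Gstk1 (-0.46), Gstt3 (-1.12), Gstm7 (-0.71), Gstcd (0.92), Gstp3 (-0.38), Gstm4 (-0.43), Gsto2 (-0.82), Gstm6 (-0.50), Gsta1 (0.51) and Gstp2 (-0.46) did not pass. Gsta2, Gstm3 and Alox5ap were listed at 0 in all 4 libraries. Of the stretches of 50 bases in the transcript, 64.2% for Gsta2, 28.8% for Gstm3 and 89.7% for Gsta1 also occurred in another gene. The levels of Gsta2, Gstm3 and Gsta1 are therefore uncertain. After median centring 4 of the 13 were lower and 0 higher, against 17.6% and 16.4% of all genes tested.

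Genes that work with the transferases gave mixed values. Of 15 tested for glutathione synthesis, turnover and cystine uptake, 2 rose and 2 fell, against 29.8% and 8.3% of all genes tested. The median of the list was -0.19. Gclc, the catalytic subunit of glutamate-cysteine ligase, the first enzyme of glutathione synthesis, had 1021 and 987 TPM in the SAFB RIP, against 644 and 634 TPM in the IgG RIP, and rose by 0.65 ± 0.10, but did not pass after median centring (0.19) or with the GC trend removed (0.33). Slc3a2, the heavy chain of the cystine transporter, fell by 0.92 ± 0.18 (limma, Benjamini-Hochberg adjusted p = 0.0216), but stood at -0.43 with the GC trend removed and did not pass (adjusted p = 0.113). Gsr, which regenerates reduced glutathione, at -0.19, and Ggt1, which begins the breakdown of conjugates, at -0.27, did not pass. The other genes called were Chac2, which degrades glutathione (2.20, higher), and Oplah (-0.71, lower), both named after their values were seen. With the GC trend removed Oplah stood at 0.04 and did not pass (adjusted p = 0.849).

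Genes for export pumps of conjugates had a median of -0.02. Abcc3 stood at -0.75 ± 0.13 and was lower, Abcg2 at 1.39 ± 0.18 was higher (limma, Benjamini-Hochberg adjusted p = 0.0167 and 0.00939), and Abcc5 (-0.08) and Abcc4 (-0.02) did not pass. With the GC trend removed Abcc3 stood at -0.42 and did not pass (adjusted p = 0.103). Of 7 glutathione peroxidase and glutaredoxin genes, 2 rose and 1 fell, against 29.8% and 8.3% of all genes tested. The median of the list was 0.26. Gpx4, which reduces lipid hydroperoxides, had 181 and 190 TPM in the SAFB RIP, against 382 and 462 TPM in the IgG RIP, and fell by 1.18 ± 0.13 (limma, Benjamini-Hochberg adjusted p = 0.00735), but stood at -0.43 with the GC trend removed and did not pass (adjusted p = 0.128). Glrx3 rose by 1.15 ± 0.12 and Glrx by 0.95 ± 0.12, while Gpx1 did not pass, at -0.52. With the GC trend removed Glrx3 stood at 0.77 and Glrx at 0.56, both called higher, and after median centring Glrx3 stood at 0.69, called higher, and Glrx at 0.49, not called. Of 19 phase I and other conjugating enzyme genes, 5 rose and 3 fell, against the same 29.8% and 8.3%, with a median of 0.31. Aldh1a1 rose by 0.76 ± 0.14 as deposited and stood at 0.30 after median centring and at 0.37 with the GC trend removed, where it did not pass. Por, the electron donor of the cytochromes P450, was lower at -0.60 ± 0.15, as was Akr1a1 at -1.19 ± 0.15, and Ephx1, an epoxide hydrolase, did not pass at 0.05. Por did not pass with the length trend removed (-0.45, adjusted p = 0.0771), and with the GC trend removed its direction turned, to 0.13 (adjusted p = 0.384). The medians of the 5 lists, -0.46 to 0.31, all lay below that of all genes tested, and no test of that difference was made. Of the 23 members and related genes called as deposited, removing the GC trend ended 12 calls and leaving out the variance trend 10. The calls of these 23 genes did not hold when either SAFB RIP library was left out. In those fits far fewer of all genes tested were called as well. With 1 IgG RIP library left out, the spread came from the SAFB RIP pair alone, the closer of the pairs. Calls kept in those fits therefore say nothing of the spread between the IgG RIP libraries.

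**Figure D5:**
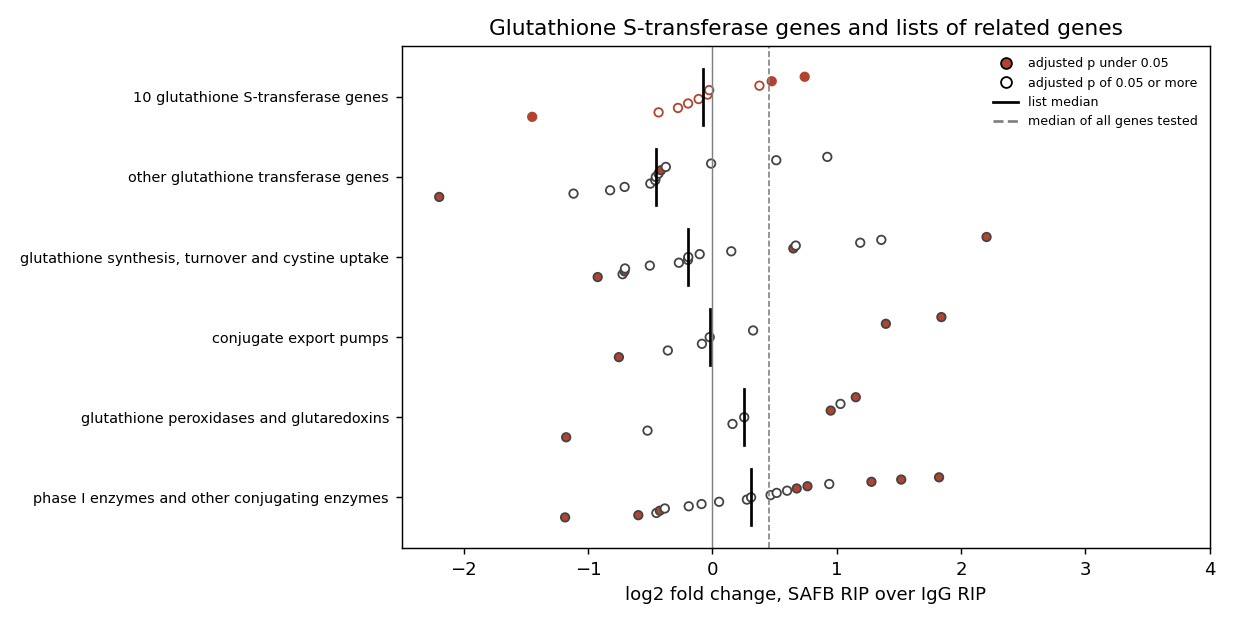
Log2 fold change of each tested gene, SAFB RIP over IgG RIP, for the 10 glutathione S-transferase genes and 5 lists of related genes, spread vertically by rank within a list. Filled points have an adjusted p under 0.05, black bars are list medians and the dashed line is the median of all genes tested. Values of the members run from -1.45 to 0.74.

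Genes most like the leading members were named by the distance between their 4 centred log2 values, among protein-coding genes within 2-fold of the member's mean level. For Gsta3, with 79 candidates, these were Fau, Rpl7 and Myo18a, at distances of 0.123, 0.158 and 0.184. Fau had 1094 and 1125 TPM in the SAFB RIP and 800 and 738 TPM in the IgG RIP. For Gstz1, with 4428 candidates, they were Stx18, Tor4a and Rhou, at distances of 0.0480, 0.0573 and 0.0834. The likeness was measured over 4 libraries only.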

How the data were processed

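The authors deposited 1 table of TPM values. Per the submitters' processing notes the build was mm10, and HISAT2, HTSeq, StringTie and DESeq2 are listed with no version or role. Neither the annotation, the tool that made the TPM values nor the strand setting is stated. TPM keeps no depth, so depth is unknown and intervals cover the spread between libraries, not counting error. TPM is a share, so RNAs that fill a library lower all other values.

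Entries sharing an identifier (14) were summed, and coordinates, transcripts and printed sequences came from GENCODE release M21 (mm10). Per gene, the longest principal coding transcript was used. Genes with at least 1 TPM in 2 libraries were tested as log2(TPM + 1), which understates fold changes of low genes, with limma 3.58.1 in R 4.3.3 (variance trend, 2 residual and 2.50 prior degrees of freedom, Benjamini-Hochberg over all genes). An exact permutation test of 2 against 2 cannot go below 0.333, so none was used.

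All 10 members are named, as are all other transferase genes tested and, from each of the other 4 lists, the 4 genes of highest mean TPM. The members and lists were chosen with earlier results of these data known. Chac2 and Oplah were named after their values were seen. Counts within the list of export pumps are not reported here. In all, 15 other settings and 1 more, chosen after the values were seen, were run.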

Additional observations from a re-analysis of the deposited data

How the results depend on the processing

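Read depth is unknown, and the IgG RIP libraries limit precision. Leaving out 1 library of either group rests on 1 residual degree of freedom, with the lone library assumed to vary like the other group. With 1 IgG RIP library left out, that assumed spread is the smaller one of the SAFB RIP pair. Over all genes, 4964 were higher and 1382 lower as deposited, against 2736 and 2935 after median centring, 2758 and 2986 after quantile normalization, and 2600 and 2322 with protein-coding genes alone. Removing the GC trend left 791 lower. Leaving out 1 library gave 767 to 7627 higher and 7 to 2566 lower. Of the 10 members, 2 were higher and 1 lower as deposited. Higher calls numbered 1 with a pseudocount of 0.1, with no filter or with the replicate block, and 0 after median centring, quantile normalization, with protein-coding genes alone, with the GC trend removed or without the variance trend. Lower calls numbered 3 after median centring and 2 after quantile normalization or with protein-coding genes alone. Leaving out 1 library gave 0 to 3 members higher and 0 to 4 lower. In the 5 lists together, 11 were higher and 9 lower, against 7 and 20 after median centring. Lower calls there were 20 after quantile normalization, 15 with protein-coding genes alone, 4 with the GC trend removed and 3 without the variance trend. Leaving out 1 library gave 0 to 18 higher and 0 to 16 lower. The causes were not tested.

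Each lysate was shared between the antibodies, but the labels do not tie replicate numbers to lysates, and deviations of same-numbered libraries correlated at -0.02, so the block was not used. With it, Gstz1 and Gstp1 were called and Gsta3 was not, and 4 of the 23 calls among members and related genes ended, that of Gstt1 among them.

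Directions changed in several genes. Median centring gave -0.0822 for Gsta4 and -0.39 for Gstm2-ps1. Quantile normalization gave -0.59 for Gsta1 and -0.90 for Gstm2-ps1. Removing the GC trend gave 0.0552 for Gstm1, 0.142 for Gstp3, 0.0397 for Oplah, 0.13 for Por and 0.42 for Gstp-ps, which was then called higher. Removing the length trend gave 0.0479 for Gstt2, 0.0350 for Gsto1 and -0.31 for Gstm2-ps1, and a pseudocount of 5 gave -0.0181 for Gstm2-ps1. Leaving out 1 library gave ranges across 0, at -0.46 to 0.0690 for Gstm1, -0.53 to 0.48 for Gstm5, -0.55 to 0.33 for Gstt2, -0.14 to 0.0645 for Gsto1, -0.59 to 0.0352 for Mgst1, -0.63 to 1.65 for Gsta1, -0.995 to 0.13 for Gstm4, -1.13 to 0.22 for Gstp2, -0.82 to 0.0688 for Gstp3, -0.0918 to 0.0703 for Mgst2, -0.0869 to 0.0444 for Gstp-ps and -0.75 to 0.89 for Gstm2-ps1. Gstp1 stayed below 0 under all 15 other settings, at -1.91 to -0.93, and passed in 13. Gsta3 and Gstz1 stayed above 0 in all 15 and passed in 5 and 8. The groups of Gstp1, Gsta3 and Gstz1 did not overlap, so only settings that rescale libraries or remove a length or GC trend could have turned their direction.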
